A study of Mus musculus with 31 samples.

Results

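Growth factor signalling in mouse embryonic fibroblasts (MEFs) under reprogramming was followed through 10 genes, 5 receptor kinases (Pdgfra, Pdgfrb, Met, Axl and Kit) and 5 secreted ligands (Pdgfc, Hgf, Gas6, Csf1 and Kitl). They were chosen by name, with earlier results of these data known. Their counts beside the shares over all genes are therefore descriptions. Each was read from the row of the array table that carries its symbol alone, which gave 1 row for every one of the 10, out of 19938 named genes in all. The fibroblasts, grown in serum-containing DMEM, received retroviruses at day 0, and total RNA was measured on 31 single-colour arrays. The 4F group received Oct4, Sox2, Klf4 and c-Myc (16 arrays: 2 each on days 1, 2, 3, 4, 5, 6 and 8, and 1 each on days 10 and 12). The 3F group received Oct4, Sox2 and Klf4 without c-Myc (1 array each on days 3, 5, 8 and 12). The GFP control group received a virus for green fluorescent protein (9 arrays: 2 each on days 1, 3, 5 and 8, and 1 on day 12), and 2 arrays came from uninfected cells at day 0. The labelling reaction started, per the labels, from 120 ng of total RNA for the 12 arrays of replicate 1 and from 300 ng for the 19 remaining arrays. The source field of the 3F samples counts 4 factors and lists 3, with no c-Myc, and all 3F values rest on taking the list as right. The labels give neither the share of infected cells nor how many embryos the fibroblasts came from. Each array of an infected culture may therefore average over infected and uninfected cells.

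Receptor tyrosine kinases are membrane proteins that bind a secreted ligand outside the cell, pair up, phosphorylate each other and pass the signal to the Ras, PI3-kinase and STAT pathways. PDGF receptors drive the growth and migration of fibroblasts and other mesenchymal cells, and MET, the receptor of hepatocyte growth factor, is typical of epithelia, which HGF from neighbouring mesenchyme reaches. AXL is a receptor of GAS6, a vitamin K-dependent protein. KIT binds stem cell factor, the product of Kitl, in germ cells, mast cells, melanocytes and blood progenitors. CSF1 supports macrophages through the receptor CSF1R.

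The values are log2 signals, and replicate arrays correlated at r = 0.974 to 0.993 over genes. The culture label was checked against 9 measured fibroblast markers, whose summed signal (log2) was 14.72 to 14.74 at day 0, 14.86 to 16.2 in GFP, 14.76 to 15.1 in 3F and 13.86 to 14.7 in 4F, a sum to which the collagens and vimentin add most. Lum, at 5.72 and 5.82 at day 0, read below the array medians of 6.04 to 6.17 there. The day 0 cells carried Col1a1 at 12.58 and 12.62 and vimentin (Vim) at 13.24 and 13.29. In bulk RNA, fewer cells that make a transcript and less transcript per cell cannot be told apart. Differences were tested with limma over all genes, and a gene was called where its Benjamini-Hochberg adjusted p was under 0.05. With 2 arrays a group, these p-values rest on the spread between the labelled biological replicates. The arrays of each replicate pair also differ in RNA input, and the main fit has no term for it. That spread therefore mixes RNA input with differences between the cultures.

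The stretch of 250 bases before the start site was taken from RefSeq (GRCm38.p6) for 9 of the 10 genes, all but Pdgfrb, which was not searched. The windows of 3 are shown because they belong to the member that was higher in 4F cells from the first day (Met), the member with the largest difference from the control arm (Gas6) and the receptor that rose most in the control arm (Pdgfra). Each is read along its gene, 5′ to 3′, and ends at the base before the start site: Met at chr6:17463707-17463956 on the plus strand, Gas6 at chr8:13494536-13494785 on the minus strand, and Pdgfra at chr5:75152001-75152250 on the plus strand. Capitals mark matches, on either strand, to 6 short motifs: the E-box CACGTG bound by Myc and related proteins, the octamer ATGCAAAT of Oct factors, the core CATTGT of Sox factors, the core GGGTG found in sites of Klf factors, the AP-1 site TGANTCA, and the GC box GGGCGG.
Met: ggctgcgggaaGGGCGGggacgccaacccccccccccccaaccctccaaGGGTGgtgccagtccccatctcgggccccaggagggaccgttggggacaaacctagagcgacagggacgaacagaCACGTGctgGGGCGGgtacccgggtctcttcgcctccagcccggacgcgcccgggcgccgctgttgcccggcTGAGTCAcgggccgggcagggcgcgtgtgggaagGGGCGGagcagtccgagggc
Gas6: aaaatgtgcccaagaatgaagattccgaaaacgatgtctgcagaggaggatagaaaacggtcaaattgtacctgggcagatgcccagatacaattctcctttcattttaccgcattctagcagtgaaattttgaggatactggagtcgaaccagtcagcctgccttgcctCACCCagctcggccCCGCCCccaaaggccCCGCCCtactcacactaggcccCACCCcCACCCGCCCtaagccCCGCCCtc
Pdgfra: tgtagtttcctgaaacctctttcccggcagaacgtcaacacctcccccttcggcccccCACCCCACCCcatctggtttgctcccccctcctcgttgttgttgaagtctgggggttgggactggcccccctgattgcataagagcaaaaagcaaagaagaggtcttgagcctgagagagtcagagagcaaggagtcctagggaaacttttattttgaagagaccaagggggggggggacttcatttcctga

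Met was the only one of the 9 with an E-box, 121 to 126 bases before the start, and with an AP-1 match, TGAGTCA, 48 to 54 bases before it. It also held 1 Klf core and 3 GC boxes. Of 32851 mouse promoters of the same length, 6.02% hold the E-box and 6.75% the AP-1 motif. Gas6 held 3 Klf cores and 4 GC boxes, all within 80 bases of the start, and 1 Klf core (19 to 23 bases before the start) overlapped a GC box (15 to 20 bases). Pdgfra held 2 Klf cores and no GC box. The Klf core occurs in 52.0% of promoters and the GC box in 32.7%. The octamer (1.6% of promoters) and the Sox core (10.7%) were in no window of the 9 genes, with 2 windows each for Hgf and Kit. These are letter matches in a short window. No binding was measured here.

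The 4F and GFP arms were compared on each day with 2 arrays in both, which asks how reprogramming cells differ from cells that carry a control virus. On day 1, 1 of the 10 genes was called, Met, which was higher in 4F, against 1.81% of all genes (1.42% higher and 0.391% lower). At an unadjusted p under 0.05, 6 of the 10 passed on that day, against 12.8% of all genes. On day 3, 7 were called, 1 higher and 6 lower (all genes 11.9%, with 6.28% higher and 5.65% lower). On day 5, 8 were called, 1 higher and 7 lower (all genes 21.4%, with 10.5% higher and 10.9% lower). On day 8, 8 were again called, now Kit higher and 7 lower (all genes 27.6%, with 14.5% higher and 13.0% lower). The members' median difference was -0.47 on day 1, -1.16 on day 3, -1.57 on day 5 and -1.6 on day 8, while the median over all genes stayed between -0.034 and -0.01. Over the mean of the 4 days, 9 were called, Met and Kit higher and 7 lower (all genes 37.4%, with 18.8% higher and 18.7% lower). Pdgfc was the 1 not called, and the mean difference of Kit was 0.27 ± 0.09 (adjusted p = 0.023), a call lost on leaving out 4F day 5 replicate 1 (adjusted p = 0.061) or the GFP array of day 3, replicate 1 (0.051).

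**Figure D1:**
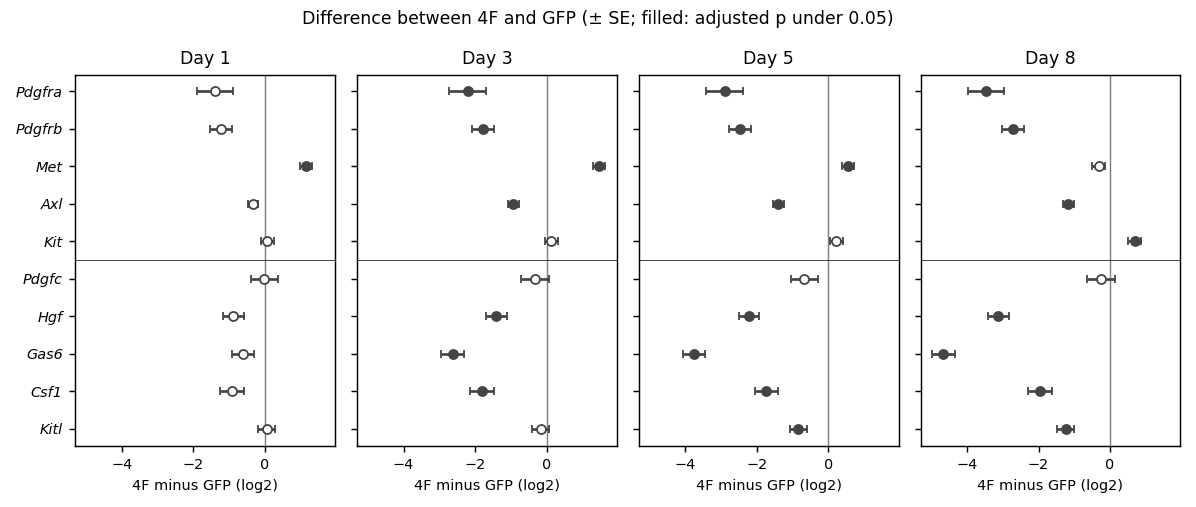
Difference between 4F and GFP for the 10 genes on days 1, 3, 5 and 8 (x axis, log2), receptors above the line and ligands below it, as the estimate ± SE with 2 arrays per group; filled points have a limma adjusted p under 0.05. The count of filled points grows from 1 on day 1 to 8 on day 8, Met crosses from right to left, and Gas6 reaches -4.66.

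Pdgfra encodes PDGF receptor alpha, the receptor of PDGF-A and PDGF-C and a common marker of mesenchymal cells. Here and below, a pair of values gives replicate 1 and then replicate 2. Its log2 signal was 9.04 and 9.32 at day 0. In GFP cells it was 10.1 and 9.15 on day 1, 10.57 and 10.09 on day 3, 11.45 and 11.01 on day 5, 12.15 and 11.24 on day 8, and 11.96 on day 12. In 4F cells it was 8.11 and 8.35 on day 1, 8.09 and 8.91 on day 2, 8.62 and 7.63 on day 3, 7.94 and 8.09 on day 4, 7.74 and 8.92 on day 5, 7.76 and 9.21 on day 6, 8.4 and 8.05 on day 8, 8.54 on day 10 and 8.29 on day 12. The GFP arrays climbed away from the 4F arrays, which stayed in a band of 7.63 to 9.21, and on each shared day no 4F array reached a GFP array. The difference on day 8 was -3.47 ± 0.51 (SE; adjusted p = 1e-04), an 11.1-fold lower signal, with -3.75 within the replicate 1 set and -3.19 within the replicate 2 set. It was -2.9 ± 0.51 on day 5 (adjusted p = 0.00078; -3.71 and -2.09 within the sets) and -2.21 ± 0.51 on day 3 (adjusted p = 0.011; -1.95 and -2.46). The day 3 call was lost without 4F day 3 replicate 2 (-1.72, adjusted p = 0.11) or without GFP day 3 replicate 1 (-1.97, adjusted p = 0.099), and its adjusted p was 0.052 when the fit held the compared groups alone. The day 1 difference of -1.4 ± 0.51 was not called (adjusted p = 0.21).

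Pdgfrb encodes PDGF receptor beta, the main receptor of PDGF-B and PDGF-D. It read 9.32 and 9.95 at day 0. The GFP arrays gave 10.2 and 10.03 on day 1, 10.42 and 9.92 on day 3, 10.32 and 10.4 on day 5, 10.37 and 10.07 on day 8, and 10.13 on day 12. The 4F arrays gave 8.71 and 9.06 on day 1, 7.59 and 8.28 on day 2, 8.61 and 8.17 on day 3, 8.26 and 8.25 on day 4, 7.56 and 8.23 on day 5, 7.69 and 8.05 on day 6, 7.83 and 7.18 on day 8, 8.04 on day 10 and 8.22 on day 12. The GFP level was flat where that of Pdgfra climbed, and all 16 4F arrays lay below all 9 GFP arrays. The difference was called on day 3 (-1.78 ± 0.3, adjusted p = 0.0012), day 5 (-2.47 ± 0.3, adjusted p = 4.3e-05) and day 8 (-2.72 ± 0.3, adjusted p = 8.1e-06; 6.57-fold lower). Within the sets the day 8 difference was -2.54 and -2.89. On day 1 it was -1.23 ± 0.3 with an adjusted p of 0.052, and 0.033 in the fit with the replicate set as a block.

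Met was the receptor that moved the other way first. It read 7.71 and 7.86 at day 0. In GFP cells it was 7.48 and 7.36 on day 1, 7.13 and 7.47 on day 3, 7.54 and 7.31 on day 5, 7.44 and 7.2 on day 8, and 7.22 on day 12. In 4F cells it was 8.56 and 8.59 on day 1, 8.58 and 8.23 on day 2, 8.52 and 9 on day 3, 8.21 and 8.3 on day 4, 7.95 and 8 on day 5, 7.76 and 7.46 on day 6, 7.09 and 6.91 on day 8, 6.83 on day 10 and 7.05 on day 12. Every 4F array of days 1 to 5 lay above every GFP array, and every 4F array from day 8 on lay below every GFP array. The difference was 1.15 ± 0.17 on day 1 (adjusted p = 0.0038; 2.22-fold higher; 1.07 and 1.23 within the sets). It was 1.47 ± 0.17 on day 3 (adjusted p = 6e-05; 2.76-fold; 1.4 and 1.54 within the sets) and 0.55 ± 0.17 on day 5 (adjusted p = 0.029; 0.41 and 0.68). By day 8 it was -0.32 ± 0.17 and not called (adjusted p = 0.19). The change from day 1 to day 8 in this difference was itself called (-1.47 ± 0.24, adjusted p = 0.0013; -1.42 and -1.52 within the sets). The day 1 adjusted p was 0.051 without 4F day 1 replicate 2 and 0.069 with the compared groups alone in the fit, and the day 5 call was lost without 4F day 5 replicate 1 (0.11), 4F day 5 replicate 2 (0.12) or GFP day 5 replicate 2 (0.2).

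Axl fell in both arms, further in 4F. It read 10.17 and 10.53 at day 0. The GFP arrays gave 9.86 and 10.14 on day 1, 10 and 10.06 on day 3, 9.63 and 9.77 on day 5, 9.32 and 9.37 on day 8, and 9.34 on day 12. The 4F arrays gave 9.5 and 9.83 on day 1, 8.44 and 8.82 on day 2, 8.99 and 9.22 on day 3, 8.79 and 8.81 on day 4, 8.27 and 8.33 on day 5, 8.09 and 7.99 on day 6, 8.2 and 8.14 on day 8, 8.81 on day 10 and 8.75 on day 12. The lowest 4F arrays were those of days 5 to 8, and the single arrays of days 10 and 12 lay above them. Against GFP the difference was -0.93 ± 0.15 on day 3 (adjusted p = 0.00078), -1.4 ± 0.15 on day 5 (adjusted p = 1.4e-05; -1.36 and -1.44 within the sets) and -1.17 ± 0.15 on day 8 (adjusted p = 2.6e-05; -1.12 and -1.23). On day 1 it was -0.33 ± 0.15 and not called (adjusted p = 0.35).

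Kit lay low on all early arrays and was higher late in 4F. It read 5.88 and 5.72 at day 0, and the GFP arrays gave 5.58 and 5.65 on day 1, 5.51 and 5.61 on day 3, 5.65 and 5.73 on day 5, 5.86 and 5.74 on day 8, and 5.64 on day 12. The 4F arrays gave 5.72 and 5.65 on day 1, 5.81 and 5.79 on day 2, 5.68 and 5.7 on day 3, 5.82 and 5.78 on day 4, 6.01 and 5.8 on day 5, 6.23 and 6.07 on day 6, 6.91 and 6.06 on day 8, 6.28 on day 10 and 6.48 on day 12. From day 6 on all 6 4F arrays lay above all 9 GFP arrays and both day 0 arrays. The day 8 difference was 0.69 ± 0.18 (adjusted p = 0.0083; 1.61-fold higher), with 1.05 within the replicate 1 set and 0.33 within the replicate 2 set. It rests on 4F day 8 replicate 1: without that array it was 0.27 (adjusted p = 0.1), and without GFP day 8 replicate 2 the adjusted p was 0.057. With the compared groups alone in the fit it was 0.27. Nr0b1, a marker of pluripotent cells, was the gene whose group means followed those of Kit most closely (Pearson r = 0.97 over the 19 group means). The 8 markers of mast cells, another cell type that carries KIT, summed to 8.06 to 8.33 in 4F and 8.05 to 8.21 in GFP. On day 8 none of the 8 was called, against 27.6% of all genes. At an unadjusted p under 0.05, 1 of the 8 passed, against 7221 of 19938 genes. Single markers ranged from Cpa3 at 4.53 to 4.71 to Hdc at 5.95 to 6.86 in 4F. The 7 melanocyte markers summed to 8.23 to 8.44 in 4F and 8.37 to 8.8 in GFP, with Tyr at 4.64 to 4.79 in 4F, and Mitf, at 5.58 to 6.05 in 4F and 6.05 to 7.13 in GFP, was lower in 4F on day 8 (-0.74 ± 0.23, adjusted p = 0.023). The part of such cells in the Kit signal was not tested.

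**Figure D2:**
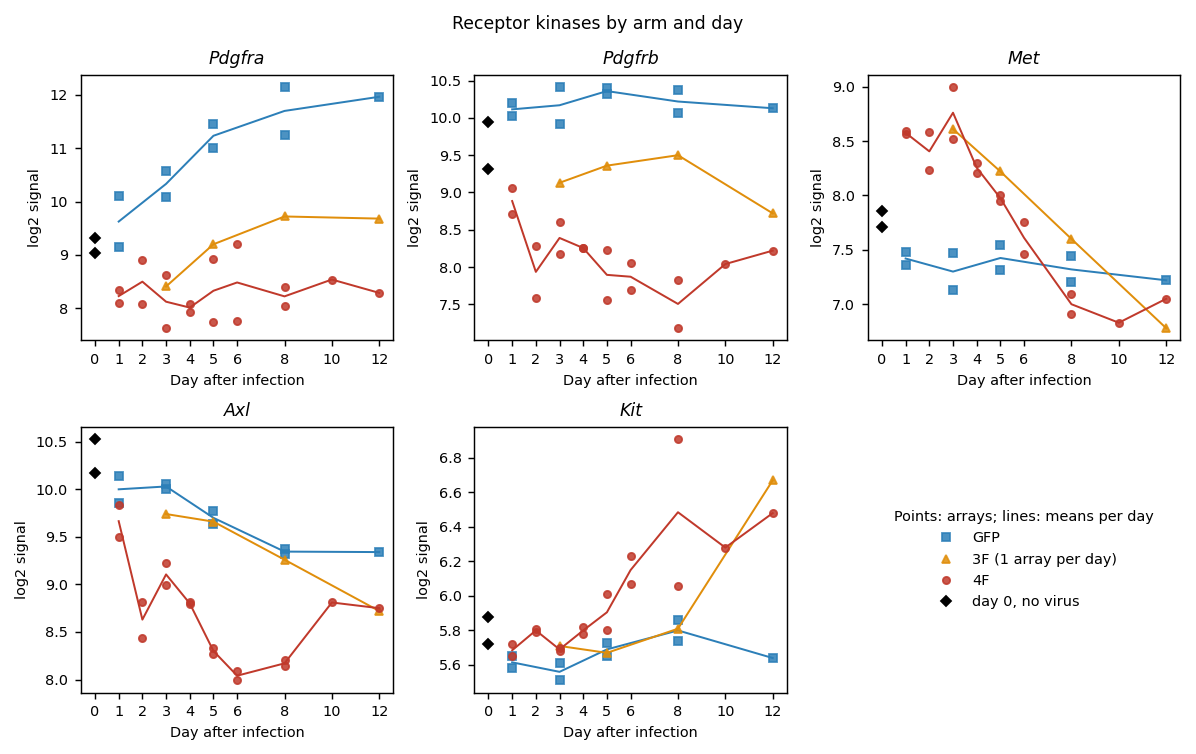
Log2 signal of the 5 receptor kinases (y axes, a scale of its own for each gene) by day after infection (x axes); points are arrays, lines join the means per day, and 3F has 1 array per day. The GFP arrays of Pdgfra climb to 12.15, the 4F arrays of Pdgfrb reach at most 9.06, Met in 4F starts above GFP and ends below it, and Kit in 4F is highest from day 6 on.

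Pdgfc, the ligand PDGF-C, which signals mainly through PDGF receptor alpha, was the member with no called difference between 4F and GFP on any day. It read 9.55 and 9.76 at day 0. The 9 GFP arrays ran from 8.74 to 9.91 (median 9.55) and the 16 4F arrays from 8.43 to 9.8 (median 9.25), and the arms overlapped. On day 8 the replicates pointed in opposite directions. In the replicate 1 set, 4F read 9.35 against 8.74 in GFP (a difference of 0.61), and in the replicate 2 set 8.44 against 9.55 (-1.11). The joint difference was -0.25 ± 0.38 (adjusted p = 0.71), and the mean over the 4 days -0.31 ± 0.19 (adjusted p = 0.22).

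Hgf encodes hepatocyte growth factor, the ligand of MET. It read 6.43 and 6.38 at day 0. In GFP cells it was 6.5 and 7.25 on day 1, 6.99 and 6.69 on day 3, 8.11 and 7.82 on day 5, 8.42 and 8.86 on day 8, and 9.29 on day 12. In 4F cells it was 5.81 and 6.18 on day 1, 5.64 and 6.43 on day 2, 5.43 and 5.45 on day 3, 5.54 and 5.9 on day 4, 5.56 and 5.92 on day 5, 5.48 and 6.03 on day 6, 5.36 and 5.66 on day 8, 5.38 on day 10 and 5.23 on day 12. No 4F array reached a GFP array on any day, and the gap widened as the GFP arm rose. The difference was -1.4 ± 0.29 on day 3 (adjusted p = 0.0049), -2.22 ± 0.29 on day 5 (adjusted p = 7e-05) and -3.13 ± 0.29 on day 8 (adjusted p = 1.6e-06; 8.75-fold lower; -3.06 and -3.2 within the sets). The day 3 adjusted p was 0.06 without GFP day 3 replicate 1. On day 1 the difference was -0.88 ± 0.29 with an adjusted p of 0.15, and 0.044 with the replicate set as a block.

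Gas6, the ligand of AXL, had the largest difference of the 10. It read 8.1 and 8.94 at day 0. In GFP cells it was 9.53 and 9.61 on day 1, 10.24 and 10.08 on day 3, 10.52 and 10.68 on day 5, 12.45 and 11.43 on day 8, and 12.47 on day 12. In 4F cells it was 8.87 and 9.05 on day 1, 7.75 and 8.36 on day 2, 7.26 and 7.8 on day 3, 7.04 and 7.18 on day 4, 6.88 and 6.83 on day 5, 7.15 and 6.93 on day 6, 7.49 and 7.07 on day 8, 7.29 on day 10 and 7.53 on day 12. The arms moved apart from both sides: the GFP arrays climbed over the whole course, and the 4F arrays were lowest on day 5. The difference was -2.63 ± 0.31 on day 3 (adjusted p = 7.4e-05; 6.21-fold lower), -3.75 ± 0.31 on day 5 (adjusted p = 1.8e-06; 13.4-fold lower) and -4.66 ± 0.31 on day 8 (adjusted p = 1.3e-07; 25.3-fold lower; -4.95 and -4.36 within the sets). On day 1 it was -0.61 ± 0.31 and not called (adjusted p = 0.45).

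Csf1, which encodes macrophage colony-stimulating factor, read 10.27 and 10.49 at day 0. The GFP arrays gave 9.59 and 9.89 on day 1, 9.62 and 10.57 on day 3, 9.14 and 9.53 on day 5, 9.27 and 10.16 on day 8, and 9.32 on day 12. The 4F arrays gave 8.69 and 8.97 on day 1, 7.51 and 7.9 on day 2, 7.91 and 8.68 on day 3, 7.67 and 7.98 on day 4, 7.44 and 7.76 on day 5, 7.58 and 7.98 on day 6, 7.63 and 7.88 on day 8, 7.76 on day 10 and 7.98 on day 12. The 4F arrays of day 2 and later lay between 7.44 and 8.68, below those of day 1, and no 4F array reached a GFP array. The replicate 2 array was the higher of the pair in all 12 pairs. The difference from GFP was -1.8 ± 0.33 on day 3 (adjusted p = 0.0025), -1.73 ± 0.33 on day 5 (adjusted p = 0.0016) and -1.96 ± 0.33 on day 8 (adjusted p = 0.00038; 3.89-fold lower; -1.64 and -2.28 within the sets). On day 1 it was -0.91 ± 0.33 with an adjusted p of 0.22, and 0.0084 with the replicate set as a block. The day 3 adjusted p was 0.092 with the compared groups alone in the fit.

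Kitl encodes stem cell factor, the ligand of KIT. It read 7.19 and 7.49 at day 0. In GFP cells it was 7.17 and 7.55 on day 1, 7.17 and 7.49 on day 3, 8.18 and 8.44 on day 5, 8.73 and 8.43 on day 8, and 8.94 on day 12. In 4F cells it was 7.31 and 7.5 on day 1, 7.02 and 7.82 on day 2, 7.31 and 7.03 on day 3, 7.25 and 7.48 on day 4, 7.35 and 7.6 on day 5, 7.4 and 7.88 on day 6, 7.38 and 7.29 on day 8, 6.03 on day 10 and 6.15 on day 12. The arms overlapped up to day 3 and were apart from day 5, when the GFP arrays had risen, while the 4F arrays stayed near day 0 until day 8. The single 4F arrays of days 10 and 12 were the lowest of all 31. The difference was -0.84 ± 0.24 on day 5 (adjusted p = 0.019) and -1.24 ± 0.24 on day 8 (adjusted p = 0.00092; 2.37-fold lower; -1.34 and -1.14 within the sets). The day 5 call was lost without 4F day 5 replicate 1 (adjusted p = 0.15) or GFP day 5 replicate 2 (0.14).

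**Figure D3:**
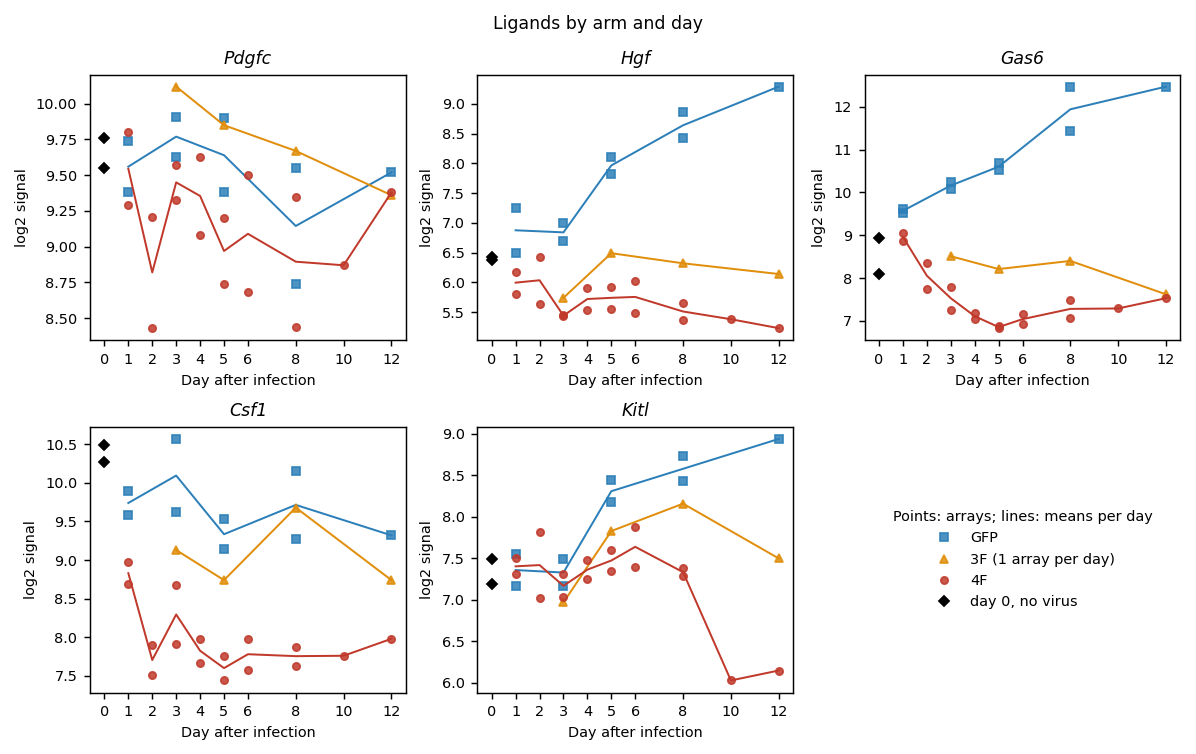
Log2 signal of the 5 ligands (y axes, a scale of its own for each gene) by day after infection (x axes); points are arrays and lines join the means per day. Hgf, Gas6 and Kitl climb in GFP and not in 4F, Csf1 is below GFP in 4F from day 1, and the arms of Pdgfc overlap.

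Over the whole course the 4F arrays of Pdgfrb, Hgf, Gas6 and Csf1 lay below all GFP arrays, 4 of the 10 genes, against 2.47% of all genes. The change in the 4F to GFP difference from day 1 to day 8 was tested as a difference of differences. This called 6 of the 10, all more negative on day 8 (8.49% of all genes were called in either direction). Gas6 changed by -4.05 ± 0.44 (adjusted p = 7.7e-05), Hgf by -2.25 ± 0.41 (adjusted p = 0.0029) and Met, as above, by -1.47. Pdgfrb (-1.49 ± 0.42, adjusted p = 0.041), Kitl (-1.29 ± 0.34, adjusted p = 0.025) and Axl (-0.84 ± 0.21, adjusted p = 0.019) were called with less margin. The call of Pdgfrb was lost when any of 7 of the 8 arrays was left out (adjusted p 0.054 to 0.17) and after quantile normalization (0.065), that of Kitl without any of 4 arrays (0.066 to 0.11) and that of Axl without any of 4 arrays (0.054 to 0.11). Without 4F day 1 replicate 2 or GFP day 1 replicate 1, 3 of the 10 (Gas6, Hgf and Met) were called. Csf1 (-1.05 ± 0.47, adjusted p = 0.23) was called with the replicate set as a block (0.008), and Kit (0.62 ± 0.25, adjusted p = 0.17) without 4F day 8 replicate 2 (1.04, adjusted p = 0.00068).

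Each arm was then set against the uninfected cells. These comparisons share the 2 day 0 arrays, so they are given side by side without a count of agreement. In GFP cells, 0 of the 10 genes were called on day 1 (0.0903% of all genes), with 3 at an unadjusted p under 0.05 (Met, Gas6 and Axl; 8.83% of all genes). On day 3 the count was 1 (all genes 1.05%), on day 5 it was 5 (10.6%) and on day 8 again 5 (20.1%), 4 higher and Axl lower. By day 8 Gas6 had risen by 3.42 ± 0.31 (adjusted p = 4.6e-06; 10.7-fold; 4.35 and 2.49 within the sets), Pdgfra by 2.51 ± 0.51 (adjusted p = 0.0023; 5.71-fold; 3.11 and 1.92), Hgf by 2.24 ± 0.29 (adjusted p = 6.6e-05; 4.71-fold; 1.99 and 2.48) and Kitl by 1.24 ± 0.24 (adjusted p = 0.0015; 2.36-fold; 1.54 and 0.94). Axl had dropped by 1.01 (SE 0.15, adjusted p = 0.00018). The day 3 call of Gas6 was lost without day 0 replicate 1 (adjusted p = 0.26) or GFP day 3 replicate 1 (0.23), and on day 5 leaving out any of the 4 arrays left 3 called. Csf1 in GFP was not called on day 8 (-0.66 ± 0.33, adjusted p = 0.21), and had an adjusted p of 0.0081 with the replicate set as a block. On day 5 its adjusted p was 0.06, and 0.00093 with the block.

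In 4F cells the count against day 0 was 3 on day 1 (0.838% of all genes), 4 on day 2 (9.35%), 4 on day 3 (8.53%), 4 on day 4 (10.1%), 4 on day 5 (13.6%), 4 on day 6 (16.1%) and 7 on day 8 (15.9%). Axl and Csf1 were lower on each of these 7 days. On day 2, Csf1 differed by -2.67 ± 0.33 (adjusted p = 0.00015; 6.38-fold lower; -2.76 and -2.59 within the sets) and Axl by -1.72 ± 0.15 (adjusted p = 7e-06; 3.3-fold lower; -1.73 and -1.71). Pdgfrb was lower from day 2 (-1.7 ± 0.3, adjusted p = 0.0019) to day 8 (-2.13 ± 0.3, adjusted p = 0.00016; -1.49 and -2.76 within the sets), and Gas6 from day 4 (-1.42 ± 0.31, adjusted p = 0.0079) to day 8 (-1.24 ± 0.31, adjusted p = 0.012; -0.61 and -1.88). Met was higher than at day 0 on days 1 to 3, most on day 3 (0.98 ± 0.17, adjusted p = 0.0016), and lower on day 8 (-0.78 ± 0.17, adjusted p = 0.0043; -0.61 and -0.96 within the sets).

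Pdgfra, by contrast, was not called against day 0 on any of these days in 4F cells: its differences ran from -0.67 on day 2 to -1.16 on day 4 (SE 0.51). They were negative within both replicate sets on every day, so the missing calls do not show that 4F was unchanged. On days 5 and 8 the called gap of Pdgfra to GFP stood beside a called rise in GFP and an uncalled difference in 4F. The day 5 call of that rise (2.05 ± 0.51) was lost without any single array of the comparison, with differences of 1.83 to 2.27. On day 3 neither arm was called against day 0 (GFP 1.15 ± 0.51, adjusted p = 0.38). Kitl in 4F was at 0 ± 0.24 from day 0 on day 8, and the whole of its gap to GFP on that day corresponded to the GFP rise. Csf1 was the reverse case in the fit without the block, low in 4F against a GFP level with no called difference from day 0.

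Several of the calls against day 0 rest on single arrays. All 3 calls of day 1 were lost when any 1 of the 4 arrays was left out, and the day 2 call of Met was lost without day 0 replicate 1 (adjusted p = 0.19), day 0 replicate 2 (0.072) or 4F day 2 replicate 1 (0.28). Without day 0 replicate 2, Pdgfrb was not called on days 3 (0.15) and 4 (0.098), nor Gas6 on days 4 (0.12) and 6 (0.063). Gas6 on day 4 also depended on 4F day 4 replicate 1 (0.066), and Pdgfrb on day 3 on 4F day 3 replicate 2 (0.13). On day 8, 4 genes were called without day 0 replicate 2, when Gas6 (0.17), Kit (0.12) and Hgf (0.15) were no longer called. Hgf on that day lost its call without any of the 4 arrays (0.071 to 0.23), Gas6 also without 4F day 8 replicate 2 (0.094) and Kit also without 4F day 8 replicate 1 (0.15). With the replicate set as a block, Hgf (-0.96, adjusted p = 0.012) and Gas6 (-0.99, adjusted p = 0.049) were also called on day 3. With the compared groups alone in the fit, the calls of Pdgfrb on days 2 (0.066) and 3 (0.09), Met on day 3 (0.073), and Gas6 on days 4 (0.059) and 8 (0.13) were lost.

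The 3F arm, which lacks c-Myc, was compared over days 3, 5, 8 and 12 in a model of arm and day, in which its 4 single arrays stand in for replicates. Against GFP, 4 of the 10 were called, all lower: Gas6 (-2.99 ± 0.39, adjusted p = 1e-04), Pdgfra (-2.01 ± 0.29, adjusted p = 0.00028), Hgf (-1.89 ± 0.31, adjusted p = 0.00068) and Pdgfrb (-1.04 ± 0.22, adjusted p = 0.0044). The model fits a single difference over the 4 days. That of Gas6 from the GFP mean ran from -1.66 on day 3 to -4.85 on day 12, and that of Hgf from -1.1 to -3.15. For Pdgfra it was -1.92 and -2.28 on these days, and for Pdgfrb -1.03 and -1.41. Of all genes 18.3% were called, 9.47% higher and 8.82% lower. On days 3, 5, 8 and 12 in turn, the 3F arrays gave 8.51, 8.21, 8.4 and 7.62 for Gas6, 8.41, 9.2, 9.72 and 9.68 for Pdgfra, 5.74, 6.49, 6.32 and 6.14 for Hgf, and 9.13, 9.36, 9.5 and 8.72 for Pdgfrb. Csf1 was called in addition without 3F day 8 (adjusted p = 0.049) and Kitl without 4F day 12 (0.046). The 3F arrays of Gas6, Hgf and Pdgfrb lay below all GFP arrays of any day, 3 of the 10 against 4.01% of all genes.

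Against 3F, the 4F arm was lower for 3 of the 10 (9.63% of all genes, 3.87% higher and 5.77% lower): Pdgfrb (-1.22 ± 0.22, adjusted p = 0.0055), Csf1 (-1.2 ± 0.23, adjusted p = 0.0076) and Axl (-0.82 ± 0.14, adjusted p = 0.0047). For Csf1 the 3F arrays gave 9.13, 8.74, 9.68 and 8.74, and on day 8 this was -0.04 from the GFP mean, while 4F lay -1.92 from 3F. For Axl they gave 9.74, 9.66, 9.26 and 8.72, which on days 3, 5 and 8 was -0.29, -0.04 and -0.09 from the GFP mean, and at the 4F level on day 12 (8.72 against 8.75). Differences of 4F from 3F in Pdgfra (-0.96 ± 0.29, adjusted p = 0.054) and Pdgfc (-0.61 ± 0.2, adjusted p = 0.072) were not called. Pdgfra passed when any of 5 arrays was left out (adjusted p 0.017 to 0.05) and Pdgfc when any of 4 was (0.031 to 0.05), and 5 of the 10 were called without 3F day 12 or without GFP day 8 replicate 1. These 2 comparisons share the 3F arrays.

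All 3F arrays belong to the arrays without a replicate number, and on day 12 alone a 4F and a GFP array share that set. On day 12 the 4F array lay from the 3F array by -0.51 for Pdgfrb, -0.76 for Csf1 and 0.03 for Axl. The model with the set as a block therefore compares 3F through that day, and in it 0 of the 10 were called between 4F and 3F: Pdgfrb -0.68 (adjusted p = 0.78), Axl -0.22 (0.94) and Csf1 -0.97 (0.37). Against GFP the 4 called genes stayed called with the block (Pdgfra -1.93, Pdgfrb -1.58, Hgf -2.37 and Gas6 -4.31), and Axl was added (-0.86, adjusted p = 0.026). With the RNA input of the labelling (120 or 300 ng) as the term instead, an alternative chosen after seeing the data, 3F shares its 300 ng with other arrays on all 4 days. Pdgfrb (-1.27, adjusted p = 0.01), Axl (-0.76, 0.012) and Csf1 (-0.97, 0.0072) were then called between 4F and 3F, and against GFP Csf1 (-0.79, adjusted p = 0.0048) joined the 4.

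Met in 3F, as in 4F, lay above GFP on day 3 and below it on day 12. Its 3F arrays gave 8.61, 8.22, 7.6 and 6.78, and 4F differed from 3F by -0.1 ± 0.26 (adjusted p = 0.91). On day 3 the 3F array lay 1.31 above the GFP mean and on day 12 it lay at -0.44 from GFP. On day 8 it lay 0.28 above the GFP mean, while the 4F mean lay -0.6 from 3F. Over the 4 days 3F against GFP was not called (0.55 ± 0.26, adjusted p = 0.18). Kit in 3F gave 5.71, 5.67, 5.81 and 6.67, so the 3F array was at the GFP level on day 8 and 1.02 above GFP on day 12. Kitl gave 6.97, 7.83, 8.16 and 7.5, and Pdgfc gave 10.12, 9.85, 9.67 and 9.36, the first of these the highest Pdgfc value of all arrays.

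**Figure D4:**
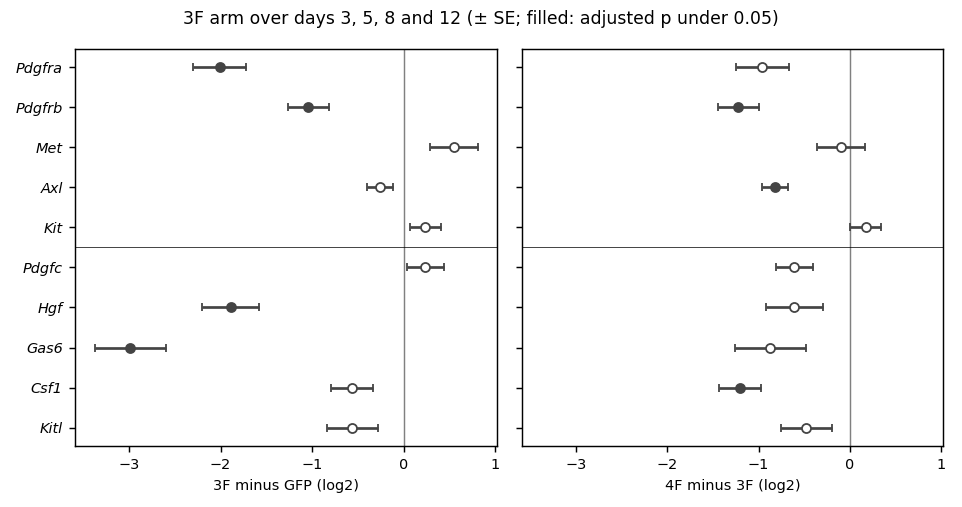
Differences of 3F from GFP (left) and of 4F from 3F (right) for the 10 genes over days 3, 5, 8 and 12 (x axes, log2), as estimates ± SE from the model of arm and day; filled points have a limma adjusted p under 0.05. Gas6, Pdgfra, Hgf and Pdgfrb are called lower in 3F than in GFP, and Pdgfrb, Csf1 and Axl lower in 4F than in 3F.

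The ligands can be read beside their receptors. On day 8 the mean signal of Hgf was 5.51 in 4F and 8.64 in GFP, and that of Met was 7 and 7.32, so the ligand differed where the receptor did not pass the test. On day 3 it was 5.44 and 6.84 for Hgf and 8.76 and 7.3 for Met, with ligand and receptor called in opposite directions. Gas6 and Axl were both lower in 4F on days 3, 5 and 8. Kitl and Kit were called in opposite directions on day 8, with Kitl at 7.33 in 4F and 8.58 in GFP, and Kit at 6.48 and 5.8. For the PDGF pairs the receptors were lower in 4F and the ligand Pdgfc was not called. Csf1r, which encodes the CSF1 receptor, had group means from 5.31 to 6.37 (5.61 at day 0). The 2 highest were single 4F arrays, 6.02 on day 10 and 6.37 on day 12. All other groups read 5.79 (GFP day 3) or less, and on day 8 the mean was 5.39 in 4F and 5.69 in GFP. The 11 macrophage markers summed to 8.75 to 9.97 in 4F and 9.04 to 9.82 in GFP. On day 8, 2 of the 11 were called, both lower in 4F, Lyz2 (-1.87 ± 0.4, adjusted p = 0.0021) and Cd14 (-1.51 ± 0.33, adjusted p = 0.0027). Over all genes 14.5% were higher and 13.0% lower on that day, so this count was near the background share. Cd68 reached 9.17 in 4F, while Adgre1 and Ptprc did not exceed 5.38 on any array. Their part in the Csf1 values was not tested.

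The 6 lists of other pathway genes, 110 measured entries in all, were counted on the same contrasts. Plaur stands in both the processing and the response list and is counted in each. On day 1 of 4F against GFP 0 of the 110 were called by limma, with 13 at an unadjusted p under 0.05, where 12.8% of all genes passed. On day 8, 17 were higher and 26 lower. Over all genes 14.5% were higher and 13.0% lower on that day, so the count of higher genes was near the background share. Of 11 other ligands, 1 was higher and 3 lower (median -0.23, against -0.03 over all genes): Vegfd (-3.21 ± 0.46, adjusted p = 8.6e-05), Pdgfd, a ligand of PDGF receptor beta (-2.74 ± 0.4, adjusted p = 9.6e-05), and Vegfc (-2.02 ± 0.12, adjusted p = 4.5e-08) were lower, and Mst1, the ligand of a MET relative, was higher (0.66 ± 0.16). Of 10 other receptors and co-receptors, 1 was higher and 4 lower (median -0.36). Nrp1, a co-receptor of VEGF, stood at 6.64 in 4F and 9.47 in GFP (-2.83 ± 0.29, adjusted p = 4.5e-06), and Flt1 (-1.94) and Nrp2 (-1.63) were lower as well. The relatives of Axl were called in opposite directions, Tyro3 higher by 0.47 and Mertk lower (-0.6 ± 0.17, adjusted p = 0.016).

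Among 14 genes that activate, block or release these ligands, 3 were higher and 6 lower (median -0.52; all genes 14.5% and 13.0%). The plasminogen activators Plat (-4.17 ± 0.34, adjusted p = 5.5e-07) and Plau (-2.3 ± 0.54, adjusted p = 0.0042), and the membrane metalloproteinase Mmp14 (-2.37 ± 0.25, adjusted p = 5.9e-06), were lower in 4F. The genes higher in 4F were Spint2, an inhibitor of the proteases that activate HGF (2.1 ± 0.31, adjusted p = 1e-04), St14, which encodes such a protease, matriptase (1 ± 0.23), and Prss8 (0.68 ± 0.2). The adaptors and kinases (31 genes) had 4 higher, near the share over all genes, and 9 lower (median -0.18), with Pik3cb, a PI3-kinase catalytic subunit, higher by 1.6 and its regulatory partner gene Pik3r1 lower (-1.37). The day 8 mean of Pik3cb was 7.99 in 4F and 6.39 in GFP, against 8.02 at day 0. For Pik3r1 it was 8.01 and 9.39, against 7.87 at day 0. Jak2 (-1.55) and Shc1 (-0.87) were lower in 4F than in GFP, and Yes1 (0.55) and Gab1 (0.53) higher.

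Negative regulators of the pathway (22 genes) had 5 higher and 1 lower (median 0.01; all genes 14.5% and 13.0%). Spred2 (1.72 ± 0.21, adjusted p = 2.1e-05) and Spry4 (1.2 ± 0.3, adjusted p = 0.0062), both inhibitors of Ras signalling, and the phosphatase gene Ptpn6 (0.61) were higher, and the ubiquitin ligase gene Cblb was lower (-0.75). The day 8 mean of Spred2 was 9.08 in 4F and 7.37 in GFP, against 8.63 at day 0. For Spry4 it was 7.77 and 6.56, against 7.9 at day 0. Of 22 growth factor response genes, 3 were higher and 3 lower (median 0), near the shares over all genes: the ETS factors Etv5 (1.86 ± 0.39) and Etv1 (1.28 ± 0.3) and cyclin D1 (Ccnd1, 1.31 ± 0.28) were higher, and the protease gene Mmp3 (-4.55 ± 0.71), the hyaluronan synthase gene Has2 (-3.73 ± 0.76) and Jun (-1.11 ± 0.32) lower. The day 8 mean of Ccnd1 was 10.31 in 4F and 9 in GFP, against 10.89 at day 0, and that of Mmp3 was 6.59 and 11.14, against 7.9. In 3F against GFP, 19 of the 110 were higher and 14 lower, and 7 of the 22 negative regulators were higher (all genes 9.47% higher and 8.82% lower). In 4F against 3F, 1 was higher and 14 lower (all genes 3.87% and 5.77%).

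**Figure D5:**
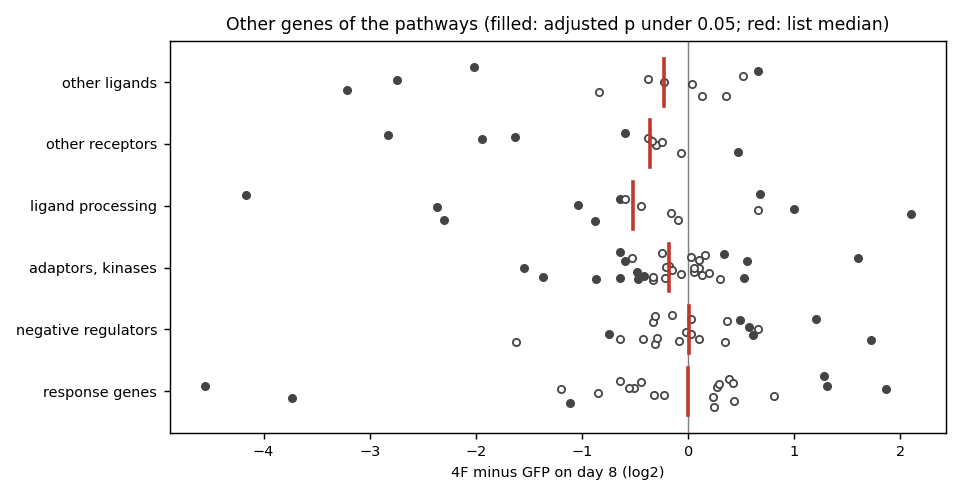
Difference between 4F and GFP on day 8 (x axis, log2) for the 110 entries of 6 lists of other pathway genes (rows, with Plaur in both the processing and the response row; vertical spread within a row has no meaning); filled points have a limma adjusted p under 0.05 and red bars are list medians. The most negative differences are Mmp3 at -4.55, Plat at -4.17 and Has2 at -3.73, and the negative regulators have 5 of their 6 called genes on the right.

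As a description, the genes whose 19 group means were most correlated with each member were found among 9668 genes whose highest group mean was at least 7. For Pdgfra they were Tgfbr3 (r = 0.973), Fgfr1 (0.972) and Dkk3 (0.968), and for Pdgfrb Sec24d (0.971), Rnf11 (0.969) and Slc39a13 (0.966). Hgf was closest to Ptgfr (0.984), Pde7b (0.982) and Gxylt2 (0.982), and Gas6 to Ltbp3 (0.983), Zeb1 (0.981) and Boc (0.98). Axl was closest to F2r (0.976), Lasp1 (0.97) and Lpp (0.969), and Csf1 to Pmepa1 (0.957), Tpbg (0.948) and Metrnl (0.946). After Nr0b1, Kit was closest to Sall4 (0.955) and Clec2i (0.946). Kitl was closest to Lrrc49 (0.925), Bloc1s1 (0.918) and Myd88 (0.91), Met to Anxa10 (0.899), Rapgef1 (0.841) and Gna12 (0.84), and Pdgfc to Actg2 (0.889), Tmsb4x (0.884) and Atp6v1g1 (0.869). Met and Pdgfc had no gene at 0.9 or above. Among the members themselves, Hgf correlated at 0.95 with both Pdgfra and Gas6, and Axl at 0.87 with Csf1, while Met with its ligand Hgf gave -0.25 and Kit with Kitl -0.44. These points share the same arrays and arms.

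Markers of several cell types moved along with these genes. On day 8, 8 of the 9 fibroblast markers were lower in 4F than in GFP (median -2.4), 7 of 9 epithelial markers were higher and 7 of 10 pluripotency markers were higher (all genes 14.5% higher and 13.0% lower). The summed epithelial markers reached 12.8 in 4F and 11.92 in 3F, against at most 9.76 in GFP, and the pluripotency markers 12.31 and 12.28, against at most 9.12. The pericyte and smooth muscle markers summed to 11.14 to 13.07 in 4F and 11.28 to 13.37 in GFP. Of the 8 endothelial markers 1 was called on day 8, Tek (1.5 ± 0.26, adjusted p = 0.00038), and the list's median was -0.05. In the control arm itself, 6 of the 9 fibroblast markers were higher and 1 lower on day 8 than at day 0 (median 1.12; 20.1% of all genes were called). Among them Dcn was 8.89 and 9.01 at day 0 and reached 13.54 in GFP, while S100a4 was 10.48 and 10.59 at day 0 and went down to 9.18, and Thy1 was 10.0 and 10.51 and went down to 9.15. The part of these shifts in the members' differences was not tested.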

How the data were processed

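The 31 single-colour arrays were read from 1 table of log2 values deposited by the authors, with 1 row per probe set. The authors' normalization step is not given in sources used here. Array medians lay between 6.04 and 6.17, and the values were used as deposited. Per the labels' protocols, RNA was column-purified with DNase digestion and labelled by the Affymetrix whole-transcript sense target assay. Of 28853 rows, 21789 carry 1 symbol, 1621 several and 5443 none, by GEO's platform annotation, and 21698 had an Entrez ID found in RefSeq. For 999 genes with several rows the row with the highest mean was used.

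limma 3.58.1 in R 4.3.3 fitted 1 mean for each of 19 groups (12 with 2 arrays, 7 with 1; 12 residual and 2.68 prior degrees of freedom), and, for 3F, arm plus day over 18 arrays (7 4F, 4 3F, 7 GFP; 12 residual and 2.26 prior). P-values were Benjamini-Hochberg adjusted over 19938 genes. Groups with 1 array were tested in the 3F model alone, except 4F day 10, which was tested in no model. The fits were tested on simulated data. Figures were drawn with matplotlib 3.10.9 in Python 3.11.15.

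The members and the gene lists were chosen with earlier results of these data known. Named genes are the 10 members and, for each, the 3 genes with the highest Pearson r over the 19 group means. From each pathway list, up to 3 genes called higher and up to 3 called lower are named, those with the largest day 8 difference. Mertk is named as well, beside Tyro3. The lists measured 11 of 11 ligands, 10 of 10 receptors, 14 of 15 processing genes, 31 of 39 adaptors, 22 of 23 negative regulators and 22 of 22 response genes. The labels give the replicate 1 arrays an RNA input of 120 ng and all others 300 ng, and say nothing else of what arrays of 1 number share. The number thus marks a technical difference and was used as a block. Over 66 pairs of groups, the replicate differences correlated across genes at r = 0.081 to 0.69 (median 0.32), and 65 were over 0.1. Alternatives were the replicate set as a block, quantile normalization, centring on array medians, a filter on dim genes, the mean of a gene's rows, a robust trended spread, only the compared groups in the fit, and each array left out. The RNA input as a term in the 3F model was added after seeing the data.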

Additional observations from a re-analysis of the deposited data

Results flagged for a closer look

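For 6 of the 10 genes the difference between 4F and GFP was itself different on day 8 and day 1, by limma's test of the difference of differences (adjusted p under 0.05 over all genes, which 8.49% of all genes passed). It changed by -4.05 for Gas6, -2.25 for Hgf, -1.49 for Pdgfrb, -1.47 for Met, -1.29 for Kitl and -0.84 for Axl, on the log2 scale. For Met the day 1 difference was 1.15 and the day 8 difference -0.32. For the other 5 the day 8 difference was the more negative.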

How the results depend on the processing

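Under the alternatives, 1184 of 1184 values of the 87 called member results kept their sign, and 94 of them lost the call. Across all 190 member results, called or not, 2511 values were computed, of which 41 gained a call. With the replicate set as a block, which for the numbered arrays follows the RNA input, 4 members were called between 4F and GFP on day 1 in place of 1, and 0 between 4F and 3F in place of 3. Beside the calls given above, the block changed no other member's call. With the RNA input as a term in the 3F model, 5 were called for 3F against GFP and 3 for 4F against 3F. With only genes above the median signal, 2 were called for 4F against GFP on day 1 and 5 for 4F against 3F, and with the robust trended spread 2 on day 1. With only the compared groups in the fit, 0 were called for 4F against GFP on day 1, 0 for 4F day 1 and 2 for 4F day 2 against day 0, and 0 for GFP day 3 against day 0. Centring arrays on their median left 0 for 4F day 1 against day 0. Shares over all genes were computed for the main fit alone. Counts under any alternative, here, above and below, therefore have no background share and cannot be read as results about the members.

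With each array left out in turn, the count for 4F against GFP was 0 to 1 on day 1, 5 to 7 on day 3, 6 to 8 on day 5, 7 to 8 on day 8, 8 to 9 for the mean and 3 to 6 for day 8 minus day 1. For 4F against day 0 it was 0 to 0 on day 1, 3 to 4 on day 2, 3 to 5 on day 3, 2 to 4 on day 4, 4 to 4 on day 5, 3 to 4 on day 6 and 4 to 6 on day 8, where 7 were called with all arrays. For GFP against day 0 it was 0 to 0 on day 1, 0 to 1 on day 3, 3 to 3 on day 5 and 5 to 5 on day 8. It was 4 to 5 for 3F against GFP and 3 to 5 for 4F against 3F. Where a group was left with 1 array, that array was assumed to vary like the others. With at most 2 arrays a group and low signals for Kit and Hgf, small differences cannot be resolved. The cause of the lost calls was not tested.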
